A study of Homo sapiens with 16 samples.

Results

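Collagen chains and the enzymes that modify them were followed in 2 established lines of human breast cancer cells kept in low or high glucose. Members were taken by name: every gene whose symbol is COL, a number, A and a number, leaving out antisense transcripts and pseudogenes, together with the lysyl oxidases (LOX, LOXL1 to LOXL4), the lysyl hydroxylases (PLOD1 to PLOD3), the prolyl 4-hydroxylase alpha subunits (P4HA1 to P4HA3), the prolyl 3-hydroxylase family (P3H1 to P3H4), CRTAP and the collagen chaperone SERPINH1. The deposited table held 18332 genes, of which 50 were members: 33 collagen chains and 17 enzymes and chaperones. A further 11 chain genes had no row in that table and so enter no level or sum given here: COL1A2, COL3A1, COL6A5, COL6A6, COL9A1, COL10A1, COL11A1, COL19A1, COL20A1, COL22A1 and COL25A1.

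The study asked how hyperglycemia changes breast cancer cells and sequenced mRNA from both lines. MDA-MB-231 is a mesenchymal-like line and MDA-MB-468 an epithelial line, and both are labelled estrogen receptor negative. The 4 groups were MDA-MB-231 in low glucose (5 mM, the control), MDA-MB-231 in high glucose (25 mM), MDA-MB-468 in low glucose (5 mM) and MDA-MB-468 in high glucose (25 mM), each exposed for 48 h with 4 replicates. All groups were conditioned in low glucose and then held without serum. Each group stands for 1 cell line, and the lines had been maintained in different media before the experiment (DMEM for MDA-MB-231, RPMI for MDA-MB-468), so line and earlier medium cannot be told apart. None of the 16 samples is labelled as an osmotic control, so glucose and osmolarity cannot be told apart either.

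A collagen molecule is built from 3 chains that wind into a triple helix. Inside the endoplasmic reticulum, prolyl 4-hydroxylases stabilise the helix, prolyl 3-hydroxylases and lysyl hydroxylases add further marks, and the chaperone SERPINH1 (HSP47) holds the folded molecule until it is exported. Outside the cell, lysyl oxidases cross-link the chains into fibers or networks. Fibrillar collagens form the fibers of the stroma, collagen IV forms the sheet of the basement membrane, collagen VI forms beaded filaments, and the fibril-associated collagens decorate fibers. In breast tumors much of the collagen is made by fibroblasts, and the tumor cells make their own, smaller repertoire.

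Each library held 14094597 to 24425916 reads assigned to genes. The deposited values are reads divided by 1 size factor per library, and levels are compared between genes as CPM, a gene's reads scaled to a common library total, per kilobase of the canonical transcript. A count of 0 in a library allows a level of up to 0.123 to 0.213 CPM (3 reads), which covers counting error only. Of 6 markers chosen for MDA-MB-231, 4 reached 1 CPM there and 3 in MDA-MB-468. In low glucose they summed to 7058 to 7360 CPM in MDA-MB-231 and 88.3 to 96.5 CPM in MDA-MB-468. Of 7 markers chosen for MDA-MB-468, 7 reached 1 CPM there and 5 in MDA-MB-231. In low glucose these summed to 10685 to 11033 CPM in MDA-MB-468 and 2148 to 2308 CPM in MDA-MB-231. SPARC and CDH2 stayed under 1 CPM in MDA-MB-231. ESR1, the estrogen receptor gene, was at 0 to 0.170 CPM in MDA-MB-231 and 2.41 to 4.41 CPM in MDA-MB-468. Of 7 fibroblast markers 5 were in the table, with DCN at 0 to 0.0618 CPM; the list summed to 14.9 to 16.2 CPM in MDA-MB-231 in low glucose and 18.4 to 19.1 CPM in high glucose, and to 18.8 to 20.7 and 13.7 to 15.5 CPM in MDA-MB-468. FAP in MDA-MB-468 (12.3 to 14.4 CPM in low and 7.61 to 9.57 CPM in high glucose) and PDGFRB in MDA-MB-231 (11.6 to 12.3 and 13.97 to 15.5 CPM) made up most of these sums. Endothelial markers, mostly KDR, summed to 12.2 to 16.3 CPM in MDA-MB-231 and 27.8 to 37.5 CPM in MDA-MB-468; leukocyte markers, mostly CD68, summed to 129 to 142 CPM in MDA-MB-231 and 1.237 to 3.12 CPM in MDA-MB-468. The part of these markers in the results was not tested.

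The 2 lines made different collagens in low glucose. MDA-MB-231 was led by collagen VI, the transmembrane collagen XIII, collagen IV, collagen VIII and collagen V alpha 1, whereas MDA-MB-468 was led by the multiplexin collagen XVIII, collagen IV alpha 5, collagen IX alpha 2 and collagen V alpha 2. Across all chains the summed level was 342 ± 10.9 CPM per kilobase in MDA-MB-231 (SD, n = 4) and 57.9 ± 1.86 in MDA-MB-468. Of 48 members tested between the lines, limma with Benjamini-Hochberg adjustment called 47, with 28 lower and 19 higher in MDA-MB-468; over all 17115 genes tested it called 85.4%, 45% higher and 40.4% lower. The chains divided 16 higher to 14 lower in MDA-MB-468, and the enzymes 3 higher to 14 lower. COL8A2 did not pass the test (log2 difference -1.10 ± 0.57 SE), and COL2A1 and COL5A3 had too few reads to be tested. The call on COL4A4, 0.59 higher on the log2 scale in MDA-MB-468, was lost without replicate 4 of each group, with quantile rescaling and after a correction for GC content (adjusted p = 0.0698, 0.268 and 0.0715, limma).

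**Figure D1:**
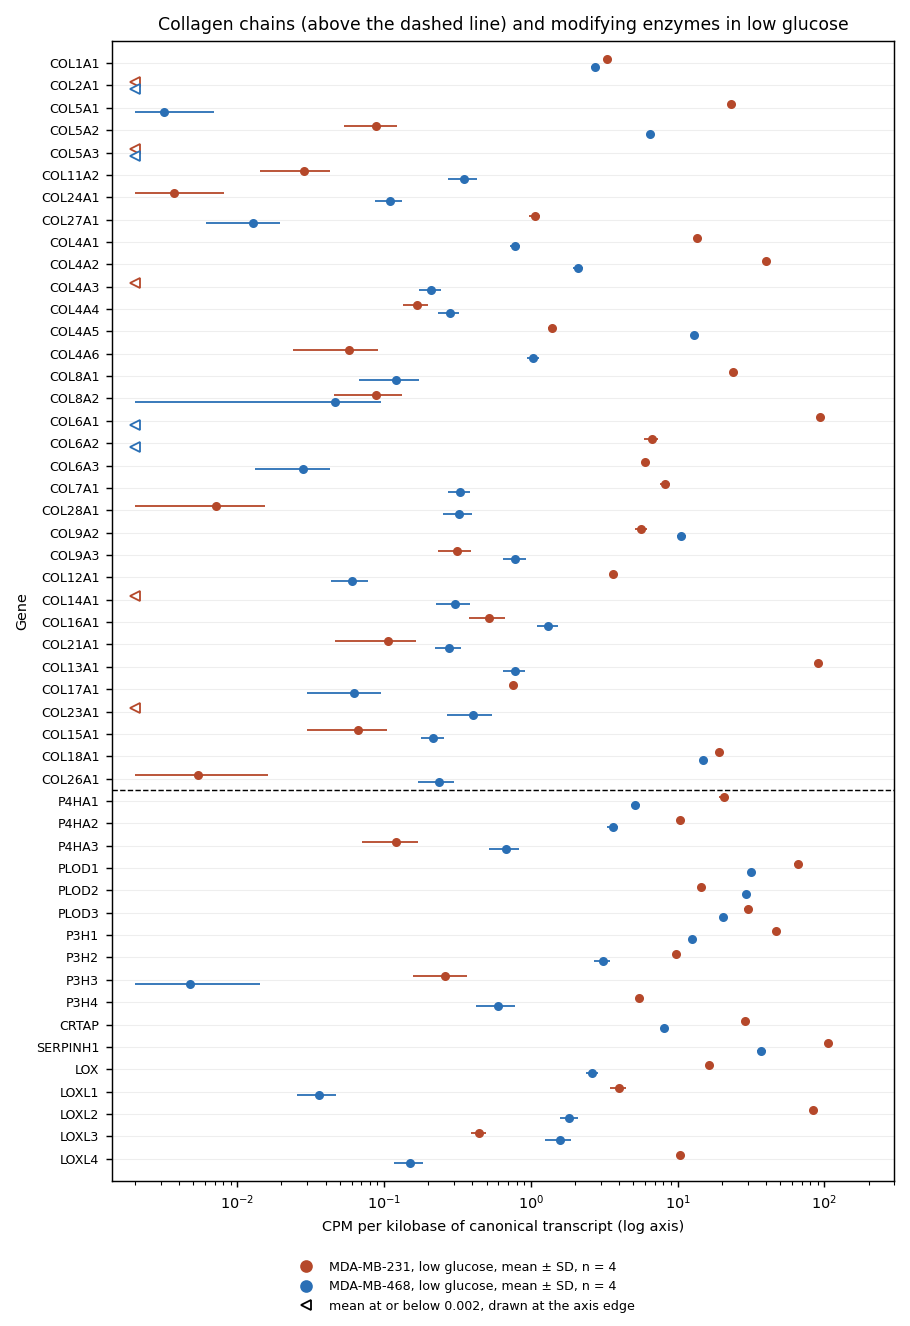
Mean level of each of the 50 members in low glucose, in CPM per kilobase of canonical transcript on a log axis, for each line (points, mean; bars, SD over 4 libraries, cut at the axis edge; open triangles, means too low for the axis). COL6A1 stands at 93.3 in MDA-MB-231 and at 0 in MDA-MB-468, and COL5A1 and COL5A2 change places between the lines.

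Among the fibrillar chains, collagen V was split between the lines. COL5A1, which pairs with COL5A2 in the collagen V molecule that starts fibers, stood at 23.2 ± 0.84 CPM per kilobase in MDA-MB-231 and at 0.00319 in MDA-MB-468, where the 4 libraries held 2 reads of it in all against 14553 in MDA-MB-231. That is a ratio of 6802 with a 95% exact interval of 1883 to 56168, which covers counting error only. COL5A2 had the opposite pattern, 6.44 ± 0.31 CPM per kilobase in MDA-MB-468 and 0.0877 ± 0.034 in MDA-MB-231 (log2 difference 6.01 ± 0.26 SE, adjusted p = 4.06e-13, limma). COL1A1, the major chain of collagen I, was at 3.30 ± 0.15 in MDA-MB-231, as against 2.73 ± 0.14 in MDA-MB-468, a smaller gap (log2 difference -0.41 ± 0.09 SE, adjusted p = 0.00046, limma). COL11A2 and COL24A1 were higher in MDA-MB-468 and COL27A1 in MDA-MB-231, all at or under 1.06 CPM per kilobase.

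Collagen VI mRNA was found almost wholly in MDA-MB-231. COL6A1 read 6907, 6627, 7164 and 6506 normalised counts in the 4 low-glucose libraries of MDA-MB-231 and 0 in each of those of MDA-MB-468, at least 2240-fold higher against a floor of 3 reads per library. COL6A2 was at least 131-fold higher in MDA-MB-231, again with no read in MDA-MB-468. COL6A3, the third chain of the heterotrimer, was lower in MDA-MB-468 with a log2 difference of -7.70 ± 0.25 (SE). The 3 chains of this molecule were not at equal levels: COL6A1 exceeded COL6A2 per kilobase 14.1 ± 1.36 times and COL6A3 15.6 ± 0.31 times in MDA-MB-231 in low glucose (SD, n = 4).

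COL13A1, a transmembrane collagen, read 5079, 5012, 5099 and 4639.9 in MDA-MB-231 and 40.3, 31.0, 36.8 and 46.7 in MDA-MB-468 in low glucose. Per kilobase it stood at 90.8 ± 3.54 CPM in MDA-MB-231, within the spread of COL6A1 at 93.3 ± 3.54. COL8A1, the short-chain network collagen of vessel walls and cornea, and COL5A1 were also within each other's spread there, at 24.0 ± 0.83 and 23.2 ± 0.84. COL7A1, the chain of the anchoring fibrils below the epidermis, stood at 8.23 ± 0.68 in MDA-MB-231, as against 0.327 in MDA-MB-468. COL12A1, COL17A1 and COL27A1 were likewise lower in MDA-MB-468, at log2 differences of -5.97, -3.62 and -5.87.

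In MDA-MB-468 the order was COL18A1 at 14.9 ± 0.74 CPM per kilobase, COL4A5 at 13.0 ± 0.46, COL9A2 at 10.6 ± 0.79 and COL5A2 at 6.44 ± 0.31. COL18A1, whose C-terminal fragment is endostatin, was a leading chain of both lines (19.0 ± 0.49 in MDA-MB-231). COL14A1, COL16A1, COL9A3, COL21A1, COL23A1, COL26A1 and COL28A1 were each higher in MDA-MB-468 than in MDA-MB-231, though none was above 1.31 CPM per kilobase. COL23A1 had no read in the low-glucose libraries of MDA-MB-231 and was at least 7.06-fold higher in those of MDA-MB-468.

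The enzymes and the chaperone summed to 453 ± 12.8 CPM per kilobase in MDA-MB-231, as against 158 ± 4.58 in MDA-MB-468 in low glucose. SERPINH1 was the highest member in both, at 105 ± 4.92 CPM per kilobase in MDA-MB-231, as against 37.3 ± 2.79 in MDA-MB-468. Among the lysyl hydroxylases PLOD1 and PLOD3 were lower in MDA-MB-468 (log2 differences -1.20 and -0.70), and PLOD2, the telopeptide lysyl hydroxylase, was higher there (29.1 ± 0.26 against 14.3 ± 0.27 CPM per kilobase). The widest differences were among the lysyl oxidases: LOXL1, LOXL4 and LOXL2 were lower in MDA-MB-468 with log2 differences of -6.12, -6.11 and -5.66, LOX with -2.79, and LOXL3 was higher with 1.64. P3H1, P3H2, P3H3, P3H4 and CRTAP were each lower in MDA-MB-468, with log2 differences of -3.41 to -1.79, P3H3 on 51 reads in MDA-MB-231 and 1 read in MDA-MB-468.

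Summed collagen chain mRNA was lower in high glucose in both lines. Chains took 0.173% ± 0.0052 of all reads in MDA-MB-231 in low glucose and 0.146% ± 0.0029 in high glucose (SD, n = 4), and 0.0314% ± 0.00082 and 0.0249% ± 0.00086 in MDA-MB-468. The ranges did not overlap in either line. Per kilobase the chain sum of MDA-MB-468 went from 57.9 ± 1.86 to 48.3 ± 1.75 CPM, and its fibrillar part from 9.66 ± 0.50 to 4.39 ± 0.37. COL5A2 alone held 6.44 ± 0.31 of that fibrillar part in low glucose. Of 4 fibrillar chains tested in MDA-MB-468, COL5A2 fell (log2 fold change -2.999), COL1A1 rose (0.28) and 2 were not called. Collagen IV, collagen VII and related, and multiplexin chains also had lower means in MDA-MB-468. Fibril-associated chains stood at 13.4 ± 0.91 and 13.0 ± 0.68, and transmembrane chains at 1.25 ± 0.28 and 1.56 ± 0.30. In bulk samples fewer cells making a transcript and less of it per cell cannot be told apart. The enzymes and the chaperone took 0.146% ± 0.0033 and 0.139% ± 0.0012 of reads in MDA-MB-231, and 0.0493% ± 0.0010 and 0.0547% ± 0.0011 in MDA-MB-468, where the share in high glucose was the larger.

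**Figure D2:**
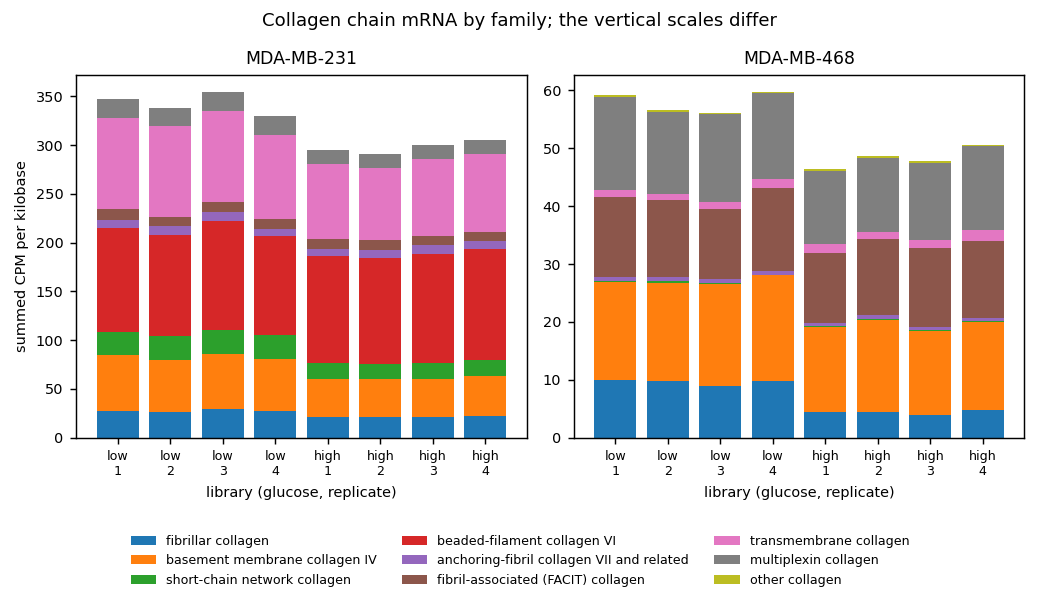
Summed CPM per kilobase of the collagen chains in each of the 16 libraries, stacked by family, with bars grouped by glucose and numbered by replicate, and with a different vertical scale for each line. Collagen VI does not shrink in MDA-MB-231 (106 ± 4.30 and 111 ± 2.20) while collagen IV does (55.3 ± 2.05 and 39.2 ± 1.22), and the fibrillar block of MDA-MB-468 goes from 9.66 ± 0.50 to 4.39 ± 0.37. COL5A2, at 6.44 ± 0.31 in low glucose, is the 1 fibrillar chain called lower in MDA-MB-468, where COL1A1 rose.

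In MDA-MB-231, 13 members were downregulated in high glucose and 1 was upregulated, of 38 tested (limma, adjusted p under 0.05). Over all 14884 genes tested 15.1% were called, 9.37% lower and 5.71% higher. Quantile rescaling evened that balance to 1114 genes lower and 1027 higher, and left 12 members lower and 2 higher. The median log2 fold change was -0.11 over the members and 0.00 over all genes. The low and high groups did not overlap for 13 members, against 18.7% of all genes tested. Since the labels do not say whether the replicates came from independent cultures, p-values here and below measure the spread between these samples, which may be technical. Downregulated were 8 of 22 chains and 5 of 16 enzymes, at log2 fold changes of -0.59 to -0.14, on the log2(value + 1) scale, which understates changes of low genes.

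Of 4 chains of the basement membrane collagen IV tested in MDA-MB-231, COL4A1 and COL4A2 fell. They encode the chains of the common collagen IV molecule and lie head to head on chromosome 13, with COL4A1 at chr13:110801310-110959504 on the minus strand and COL4A2 at chr13:110958159-111165556 on the plus strand (GENCODE lifted to GRCh37). COL4A2 read 4671, 4361, 4629 and 4269 in low glucose and 2995, 3092, 2957 and 3237 in high glucose. Every high-glucose library was below every low-glucose one, and COL4A2 fell by 0.55 ± 0.04 (SE) on the log2 scale (adjusted p = 3.79e-08, limma). COL4A1, shown beside its partner and chosen after its values were seen, read 1608, 1447, 1615 and 1512 in low glucose and 1145, 1057, 1080.2 and 1135 in high glucose. It fell by 0.48 ± 0.04 (adjusted p = 7.77e-07, limma), again without overlap, and the ratio of COL4A2 to COL4A1 per kilobase stayed at 2.94 ± 0.08 and 2.82 ± 0.14. COL4A4 and COL4A5 did not pass the test (log2 fold changes -0.27 and -0.26), and COL4A3 and COL4A6 were too low in this line to be tested.

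The 2 genes share the stretch between their start sites, which is printed because they moved together in MDA-MB-231. In MDA-MB-468 their ratio differed between the glucose groups, as given below. In RefSeq's GRCh38.p14 it spans 126 bases at chr13:110307158-110307283, given below on the plus strand, 5′ to 3′, with matches to CCAAT and GGGCGG on either strand in capitals.
COL4A1 to COL4A2: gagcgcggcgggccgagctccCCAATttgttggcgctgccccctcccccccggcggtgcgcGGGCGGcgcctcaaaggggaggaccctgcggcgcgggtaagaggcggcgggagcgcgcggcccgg
It held 1 CCAAT, 1 GGGCGG and no TATAAA. Among 35116 RefSeq promoter windows of 300 bases, searched on both strands, 34.6% held CCAAT, 45% GGGCGG and 11.5% TATAAA. Such a match is a description of the letters and not of a bound site.

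Outside collagen IV, COL8A1 read 2216, 2246, 2390.3 and 2323 in low glucose and 1519.9, 1468, 1584 and 1525 in high glucose. The groups did not overlap, and its fall of 0.59 ± 0.04 on the log2 scale was the largest of any member in this line (adjusted p = 1.54e-08, limma). COL13A1, given above for low glucose, read 4131, 3924, 4145 and 4214 in high glucose, a smaller fall of 0.27 ± 0.04 without overlap (adjusted p = 3.78e-05, limma). COL5A1 fell by 0.45 ± 0.03, COL12A1, a fibril-associated chain, by 0.42 ± 0.06 and COL18A1 by 0.43 ± 0.04. With the spread taken from all 16 samples of both lines, the calls on COL5A1, COL6A3, COL8A1, COL12A1 and COL13A1, each under 1 CPM per kilobase in MDA-MB-468, were lost (adjusted p = 0.0876 to 0.243, limma), as were those on LOXL1 and P3H2.

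Of the collagen VI chains COL6A3 fell and the other two were not called. COL6A1 read 7149.9, 6964, 7190.0 and 7329 in high glucose, which overlaps its low-glucose values, and its log2 fold change of 0.07 ± 0.03 did not pass the test (adjusted p = 0.144, limma). COL6A2 was at 0.00 ± 0.08. COL6A3 fell by 0.49 ± 0.04 (adjusted p = 4.43e-07, limma), from 1090.5 ± 42.1 to 774 ± 12.8 (SD, n = 4). The ratio of COL6A1 to COL6A3 per kilobase went from 15.2 to 15.8 over the low-glucose libraries to 22.2 to 23.6 over the high-glucose ones, with no overlap. The ratio of COL6A1 to COL6A2 was 14.1 ± 1.36 and 14.8 ± 0.90, within its spread.

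**Figure D3:**
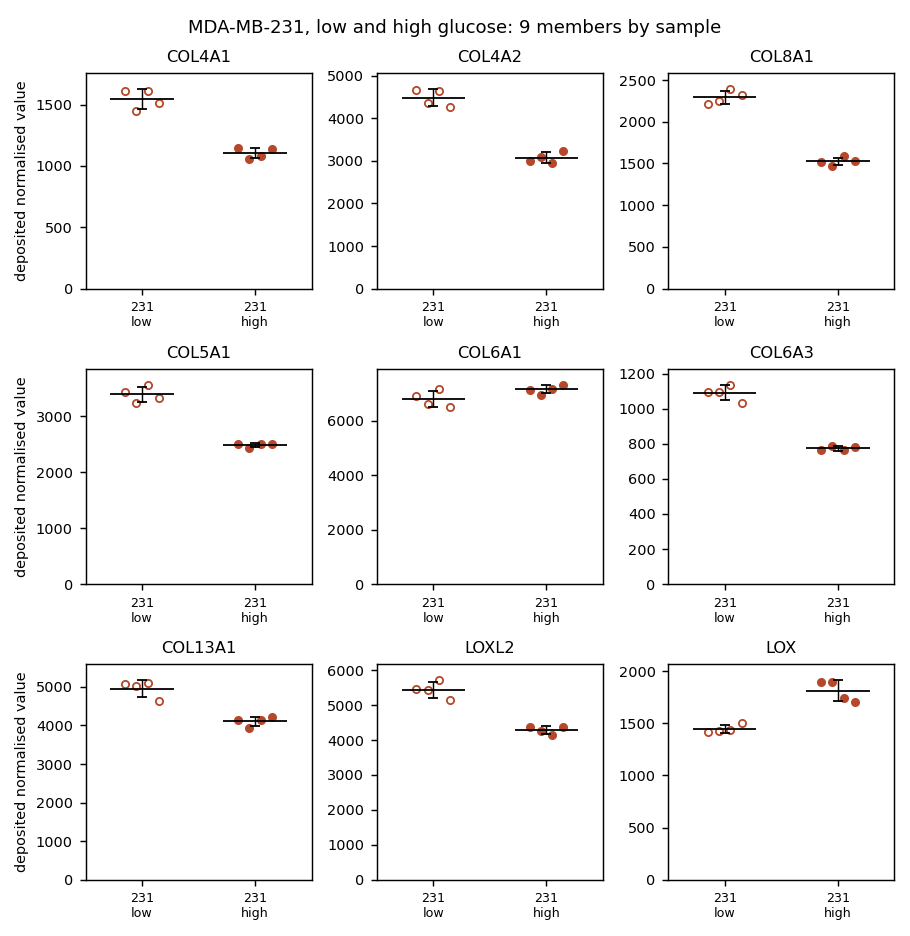
Deposited normalised values of 9 members in the 8 MDA-MB-231 libraries, low glucose (open points) and high glucose (filled points), with the mean and SD as black lines and every vertical axis starting at 0. All panels but COL6A1 show groups that do not overlap. These panels hold members called in this line, so this follows largely from the choice. Of all genes tested in this line, 18.7% did not overlap. LOX is the panel without overlap in which the high-glucose libraries are the upper ones.

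Of 16 enzymes tested in MDA-MB-231, 5 fell and 1 rose. LOX, the founding lysyl oxidase and the 1 upregulated member, was chosen for its full values after they were seen: 1418, 1425, 1439 and 1500.0 in low glucose and 1896, 1899.6, 1744 and 1705 in high glucose. All high-glucose libraries lay above the low-glucose ones, and LOX rose by 0.32 ± 0.04 on the log2 scale (adjusted p = 3.7e-05, limma). Its relative LOXL2 went the other way and fell by 0.34 ± 0.03, from 5439 ± 226 to 4292 ± 107 (adjusted p = 1.81e-06, limma). LOXL3 and LOXL4 were not called (-0.07 ± 0.21 and -0.03 ± 0.06), and LOXL4 read 666, 644, 669 and 616 in low glucose and 666, 616, 583 and 682 in high glucose.

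LOXL1, which acts on elastic fibers, read 178, 131, 174 and 161 in low glucose and 122, 126, 132 and 122 in high glucose. The second low-glucose library lay within the range of the high-glucose ones, and the fall of 0.35 ± 0.10 (adjusted p = 0.0268, limma) was lost without low-glucose replicate 1 or 3 or without high-glucose replicate 1, 2 or 4 (adjusted p = 0.0539 to 0.0944). Its exons share 9.21% of their bases with the antisense LOXL1-AS1, and how the counting used strand is not given in the sources used here.

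Of the lysyl hydroxylases PLOD1 and PLOD2 fell. PLOD1, the helical lysyl hydroxylase, read 3463, 3407, 3591 and 3087 in low glucose and 3113, 2967, 2979 and 3070.2 in high glucose. The fourth low-glucose library fell within the high-glucose range, and PLOD1 was lower by 0.16 ± 0.04 (adjusted p = 0.0144, limma). PLOD2 read 947, 926, 911 and 942 in low glucose against 859, 831, 829 and 853 in high glucose. These groups did not overlap, yet the call (fell by 0.14 ± 0.04, adjusted p = 0.0227, limma) was lost without low-glucose replicate 1 or high-glucose replicate 2 or 3 (adjusted p = 0.0644 to 0.067). PLOD3 stood at -0.04 ± 0.05 and was not called.

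P3H2, a prolyl 3-hydroxylase of basement membrane collagens, read 595, 570.5, 591 and 584 in low glucose and 479, 542, 564 and 457 in high glucose. High-glucose libraries were all lower but widely spread, and its fall of 0.20 ± 0.06 (adjusted p = 0.0376, limma) was lost without low-glucose replicate 1, 2 or 3 or high-glucose replicate 1 or 4 (adjusted p = 0.0571 to 0.131). SERPINH1 read 3913, 3738, 3882 and 3483 in low glucose and 3639, 3569.9, 3417 and 3531 in high glucose, overlapping groups with a log2 fold change of -0.08 ± 0.04 (adjusted p = 0.156, limma). P4HA1, P4HA2, P3H1, P3H3, P3H4 and CRTAP were not called either, at -0.08 to 0.59.

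In MDA-MB-468 members changed in both directions, with 11 downregulated and 7 upregulated of 39 tested. Over all 15757 genes tested 47.6% were called, 22.7% lower and 24.9% higher, so the members' share of 46.2% was near that of all genes. The low and high groups did not overlap for 16 members, against 42.5% of all genes tested. Of the chains 8 fell and 2 rose (24 tested), and of the enzymes 3 fell and 5 rose (15 tested). The median log2 fold change was -0.02 over the members and 0.00 over all genes.

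COL5A2, at chr2:189896624-190090038 on the minus strand (GRCh37), showed the widest change of any member in either line. It read 721, 711, 646 and 689.8 in low glucose and 90.4, 84.1, 75.5 and 93.6 in high glucose. No library came near the other group, and COL5A2 fell by 2.999 ± 0.08 on the log2 scale (adjusted p = 2.99e-13, limma). From the fourth chain of this line in low glucose it went to 0.783 CPM per kilobase. In MDA-MB-231, where it was scarce, it read 14.3, 4.89, 10.1 and 12.3 in low glucose and 7.78, 15.8, 17.6 and 9.51 in high glucose, overlapping groups with 46 and 52 reads in all. The difference between the lines in the response was -3.28 ± 0.37 (adjusted p = 4.17e-06, limma).

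COL1A1 went the other way in MDA-MB-468 and rose by 0.28 ± 0.07 (adjusted p = 0.00568, limma), from 254 ± 13.1 to 308 ± 27.0 (SD, n = 4), without overlap. In MDA-MB-231 its log2 fold change was -0.18 ± 0.09 and did not pass the test. COL11A2 and COL24A1, at -0.32 and -0.72, were not called at 118 to 156 and 28 to 53 reads over a group.

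Of 6 collagen IV chains tested in MDA-MB-468, COL4A6 and its neighbour COL4A5 fell. COL4A6 lies at chrX:107398837-107682727 on the minus strand and COL4A5 at chrX:107683068-107940775 on the plus strand (GRCh37), and both chains join in a collagen IV molecule of certain epithelial basement membranes. COL4A6 read 108, 124, 106 and 97.9 in low glucose and 56.4, 42.6, 53.8 and 44.7 in high glucose. The groups lay well apart, and it fell by 1.13 ± 0.13 (adjusted p = 3.26e-06, limma). COL4A5 was lower by 0.16 ± 0.04 (adjusted p = 0.00456, limma), from 1338 ± 42.5 to 1197 ± 57.4, a call lost when samples were corrected for transcript length (adjusted p = 0.0502). The ratio of COL4A5 to COL4A6 per kilobase accordingly went from 12.7 ± 1.54 to 25.3 ± 4.65 (SD, n = 4).

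These genes too share the space between their starts, which is printed because their ratio in MDA-MB-468 was 10.8 to 14.5 in low and 20.9 to 30.3 in high glucose, without overlap. It spans 379 bases in RefSeq's GRCh38.p14, and the 250 before the COL4A5 start, chrX:108439588-108439837, read on the plus strand 5′ to 3′ with CCAAT on either strand in capitals as follows.
COL4A6 to COL4A5: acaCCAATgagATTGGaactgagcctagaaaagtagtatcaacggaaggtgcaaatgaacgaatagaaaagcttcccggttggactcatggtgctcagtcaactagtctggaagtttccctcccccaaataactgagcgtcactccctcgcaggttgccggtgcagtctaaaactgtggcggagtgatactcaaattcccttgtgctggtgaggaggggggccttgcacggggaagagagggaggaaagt
This stretch held 2 CCAAT, no GGGCGG and no TATAAA. The third collagen IV pair, COL4A4 and COL4A3, lies on chromosome 2; neither was called in MDA-MB-468, and in MDA-MB-231 COL4A3 was too low to be tested. For comparison, the 250 bases before the COL4A3 start, chr2:227164374-227164623, held 2 GGGCGG and neither other motif, with GGGCGG on either strand in capitals.
COL4A4 to COL4A3: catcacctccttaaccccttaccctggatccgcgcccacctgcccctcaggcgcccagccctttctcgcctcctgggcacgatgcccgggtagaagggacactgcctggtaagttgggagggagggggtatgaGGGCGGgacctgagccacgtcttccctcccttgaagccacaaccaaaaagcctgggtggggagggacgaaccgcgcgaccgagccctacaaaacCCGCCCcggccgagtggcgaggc
Promoter entries were found for 40 of the 50 members.

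COL4A1 and COL4A2, which fell in MDA-MB-231, were not called in MDA-MB-468. COL4A1 read 80.7, 74.1, 78.8 and 88.9 in low glucose and 85.5, 91.8, 93.9 and 88.5 in high glucose, with overlap and a log2 fold change of 0.16 ± 0.11. COL4A2 read 196, 201, 226 and 225, then 196, 181, 179.7 and 184, a log2 fold change of -0.19 ± 0.08 (adjusted p = 0.0541, limma). Their ratio per kilobase was 2.67 ± 0.20 in low glucose and 2.10 ± 0.17 in high glucose. Over the libraries it ran from 2.47 to 2.91 in low and 1.94 to 2.33 in high glucose, without overlap. The response differed between the lines for both, by 0.64 ± 0.08 for COL4A1 (adjusted p = 1.56e-05, limma) and 0.35 ± 0.07 for COL4A2 (adjusted p = 0.00108, limma).

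Of 6 fibril-associated chains tested in MDA-MB-468, 2 fell and 1 rose. COL14A1, a chain found at the surface of collagen fibers, read 43.5, 49.8, 30.6 and 29.6 in low glucose and 13.6, 20.8, 16.02 and 16.9 in high glucose. Low-glucose libraries were spread but all higher, and COL14A1 fell by 1.13 ± 0.23 (adjusted p = 0.000783, limma). COL16A1 read 109.9, 87.4, 119.9 and 130.2 in low glucose and 61.2, 57.9, 68.7 and 69.1 in high glucose. These groups did not overlap either, and COL16A1 fell by 0.78 ± 0.13 (adjusted p = 0.000149, limma).

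COL9A3, a chain of the cartilage collagen IX, rose instead. It read 38.0, 29.9, 24.5 and 30.5 in low glucose and 52.5, 59.0, 67.5 and 66.6 in high glucose. Every high-glucose library was above every low-glucose one, and COL9A3 rose by 0.99 ± 0.17 (adjusted p = 0.000177, limma). COL9A2, its partner in the collagen IX molecule, stood at 10.6 ± 0.79 and 10.4 ± 0.47 CPM per kilobase, and was not called (adjusted p = 0.974, limma). COL12A1 and COL21A1 did not pass the test (-1.01 ± 0.41 and -0.15 ± 0.27), COL12A1 with 49 and 20 reads over the groups.

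Both multiplexin chains were lower. COL15A1 read 13.4, 17.7, 19.3 and 20.7 in low glucose and 3.89, 4.37, 10.3 and 5.06 in high glucose, with 78 and 23 reads over the groups. The third high-glucose library was the nearest to the low group but still below it, and COL15A1 fell by 1.51 ± 0.35 (adjusted p = 0.00213, limma). COL18A1 was lower by 0.14 ± 0.05 (adjusted p = 0.0239, limma), a call lost without low-glucose replicate 1 or 3 or high-glucose replicate 1 or 2 (adjusted p = 0.0544 to 0.0875) and after a correction for transcript length (adjusted p = 0.107). Its exons share 18.5% of their bases with SLC19A1 on the opposite strand, whose log2 fold change was -0.17 in MDA-MB-231, as against 0.60 in MDA-MB-468.

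COL7A1 read 56.1, 51.98, 37.6 and 44.01 in low glucose and 33.1, 44.8, 32.0 and 23.6 in high glucose. The groups overlapped, and the fall of 0.51 ± 0.20 just passed (adjusted p = 0.0485, limma). It was lost without low-glucose replicate 1, 2 or 4 or high-glucose replicate 1, 3 or 4 (adjusted p = 0.0672 to 0.156), and with edgeR (adjusted p = 0.053), DESeq2 (adjusted p = 0.083), quantile rescaling, length correction or no filter on low values (adjusted p = 0.0599 to 0.0946). In MDA-MB-231, where it was abundant, COL7A1 read 1227, 1402, 1419 and 1219 in low glucose and 1213, 1184, 1306 and 1367 in high glucose, and was not called (adjusted p = 0.6, limma).

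**Figure D4:**
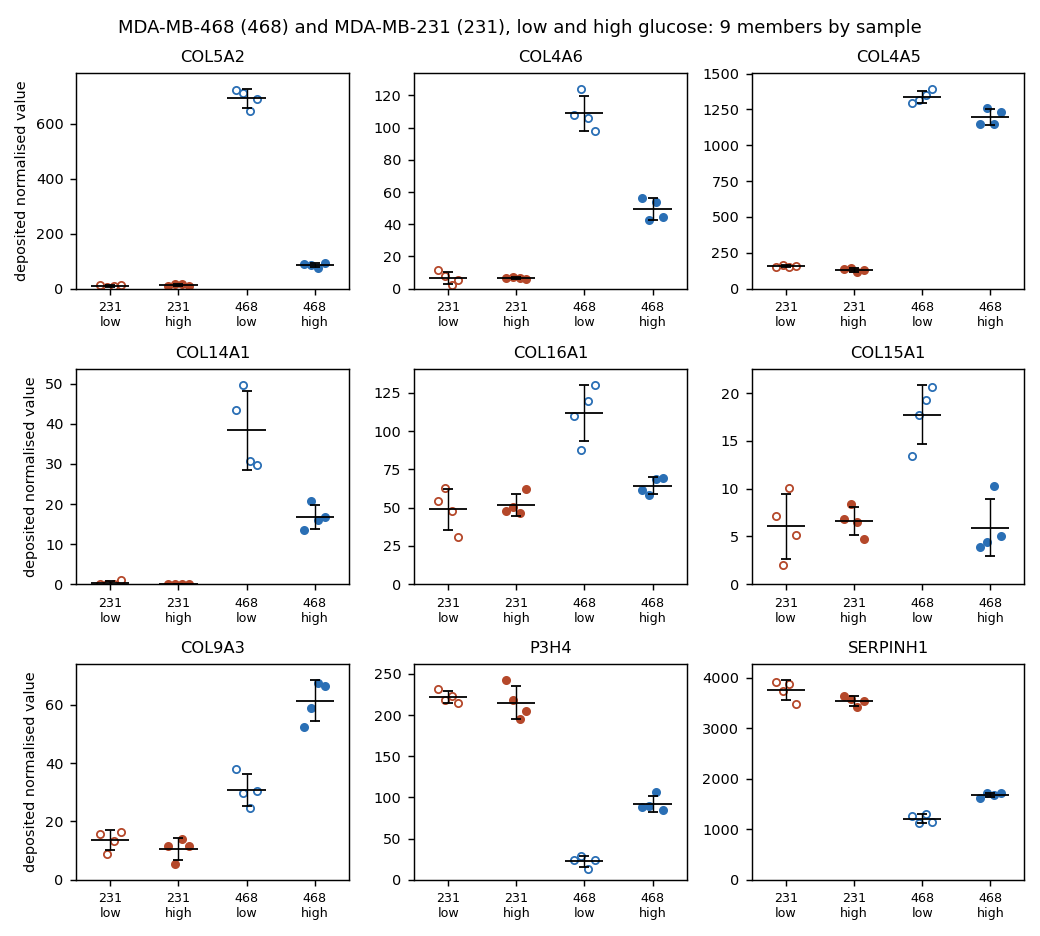
Deposited normalised values of 9 members in all 16 libraries, by cell line and glucose (open points, low; filled points, high), with the mean and SD as black lines and vertical axes starting at 0. In MDA-MB-468 the low and high groups do not overlap in any of the 9 panels. All 9 are members called in that line, so this follows largely from the choice. Of all genes tested there, 42.5% did not overlap. COL5A2 drops to 85.9 from 692, and P3H4, COL9A3 and SERPINH1 are the panels where high glucose is the upper group.

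Of 11 enzymes and chaperones of the endoplasmic reticulum tested in MDA-MB-468, 5 rose and 2 fell. Over all genes tested 24.9% were higher and 22.7% lower. P3H4 (SC65), a non-catalytic partner of the prolyl 3-hydroxylase P3H3 in a complex that governs lysine hydroxylation, lies at chr17:39958199-39968856 on the minus strand (GRCh37). It read 23.7, 28.8, 13.1 and 23.4 in low glucose and 88.5, 89.6, 106 and 84.3 in high glucose. No libraries overlapped, and P3H4 rose by 2.05 ± 0.21 (adjusted p = 5.05e-07, limma). In MDA-MB-231 it read 232, 218, 224 and 215 in low and 242, 218, 195 and 205 in high glucose, overlapping groups above all those of MDA-MB-468. P3H3 itself was nearly absent from MDA-MB-468, with 1 and 4 reads over the groups.

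SERPINH1 read 1266, 1118, 1301 and 1139.8 in low glucose and 1623, 1707, 1678 and 1709 in high glucose. It was higher in every high-glucose library and rose by 0.48 ± 0.05 (adjusted p = 4.38e-07, limma). PLOD1 read 1507, 1411, 1522 and 1437, then 1754, 1724, 1836 and 1951, and rose by 0.30 ± 0.04 (adjusted p = 2.02e-05, limma). P4HA2, the catalytic subunit of a prolyl 4-hydroxylase, rose by 0.43 ± 0.08 and CRTAP, the partner of P3H1, by 0.22 ± 0.04, both without overlap. P4HA1, P4HA3, PLOD2 and P3H1 were not called, at -0.33 to 0.05.

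PLOD2 read 1703, 1743, 1708 and 1701 in low glucose and 1731, 1771, 1773 and 1743 in high glucose, and stood at 0.03 ± 0.03. P3H2 read 153, 197, 173 and 153 in low glucose and 133, 122, 108 and 107 in high glucose. It fell by 0.52 ± 0.11 without overlap (adjusted p = 0.000816, limma). PLOD3, a lysyl hydroxylase that also carries glycosyltransferase activity, was lower by 0.14 ± 0.05 (adjusted p = 0.0328, limma), a call lost without low-glucose replicate 1, 3 or 4 or high-glucose replicate 1 or 3 (adjusted p = 0.0631 to 0.11).

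Of the lysyl oxidases only LOXL4 was called in MDA-MB-468, and it was scarce. It read 7.12, 11.1, 7.002 and 8.98 in low glucose and 3.89, 2.18, 1.14 and 2.53 in high glucose, with 37 and 10 reads over the groups, and fell by 1.51 ± 0.47 (adjusted p = 0.0141, limma). LOXL1 read 1.58, 1.11, 1.75 and 0.898, then 7.78, 4.37, 5.72 and 2.53, all from 6 and 20 reads, and was below the minimum for the test within this line. All 4 high-glucose values were above the low-glucose ones. LOXL1-AS1 on the opposite strand had a log2 fold change of 1.52 in this line, and reads of the pair cannot be told apart where the exons overlap if strand was not used. LOX, LOXL2 and LOXL3 were not called (0.04, 0.15 and -0.25).

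**Figure D5:**
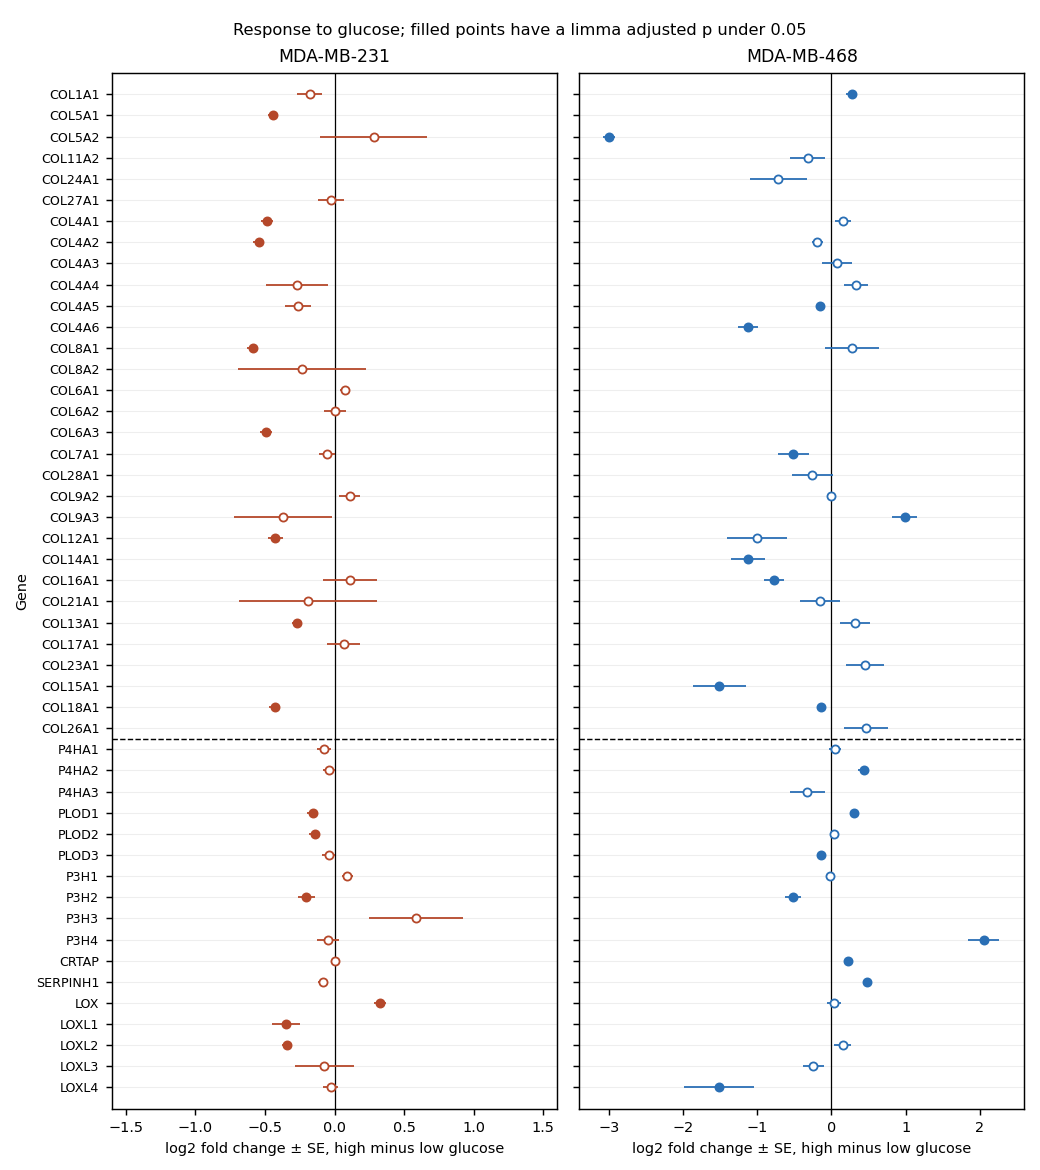
Log2 fold change from low to high glucose with its SE for every tested member, chains above and enzymes below the dashed line, with a panel for each line (filled points, limma adjusted p under 0.05; horizontal scales differ). In MDA-MB-231 the filled points lie between -0.59 and -0.14 but for LOX, and in MDA-MB-468 they run from -2.999 for COL5A2 to 2.05 for P3H4.

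The response itself was compared between the lines in 1 fit over all 16 samples. That fit takes 1 spread per gene from both lines, so its SE can be smaller than in MDA-MB-468 alone, as for COL4A1 and LOXL4. Of 48 members tested 20 differed, 15 with the more positive response in MDA-MB-468 and 5 with the more negative, while over all 17115 genes 30.9% differed, 17% more positive and 13.9% more negative. Enzymes accounted for 8 of the 15 and for 1 of the 5. The 2 largest differences were COL5A2, given above, and P3H4, at 2.10 ± 0.24 (adjusted p = 3.8e-06, limma). SERPINH1, P4HA2, PLOD1 and CRTAP rose in MDA-MB-468 and had log2 fold changes of -0.16 to 0.00 in MDA-MB-231. Their differences between the lines, 0.56 ± 0.07, 0.48 ± 0.08, 0.46 ± 0.06 and 0.22 ± 0.04, each passed the test. For PLOD1 the directions were opposite and called in both lines.

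LOXL1 (1.68 ± 0.32) and LOXL4 (-1.48 ± 0.27) also differed, with the low read numbers in MDA-MB-468 given above. For LOXL1 the overlap with LOXL1-AS1 given above applies as well. For LOXL4 this SE is below that of its fall within MDA-MB-468. COL9A3 differed by 1.36 ± 0.36 (adjusted p = 0.00803, limma), which was lost without replicate 4 of each group (adjusted p = 0.0569). In MDA-MB-231 COL9A3 read 15.7, 8.81, 13.4 and 16.4 in low glucose and 11.7, 5.26, 13.9 and 11.4 in high glucose, which overlap. COL16A1 read 54.3, 62.6, 48.1 and 30.8 in low and 47.7, 50.5, 46.4 and 61.8 in high glucose in that line. Its difference of -0.89 ± 0.26 (adjusted p = 0.0145, limma) was lost without replicate 1, 3 or 4 of each group (adjusted p = 0.0545 to 0.0716).

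For chains scarce in MDA-MB-231 the comparison rests on few reads there. COL4A6 read 11.4, 7.83, 2.24 and 5.14 in low and 6.81, 7.36, 6.50 and 5.71 in high glucose in that line. The difference of -1.28 ± 0.41 (adjusted p = 0.0259, limma) was lost with edgeR (adjusted p = 0.0602) and DESeq2 (adjusted p = 0.0682) and without replicate 2, 3 or 4 of each group (adjusted p = 0.0644 to 0.104). COL15A1 read 7.15, 1.96, 10.1 and 5.14 in low and 6.81, 8.41, 6.50 and 4.76 in high glucose in MDA-MB-231. Its difference of -1.75 ± 0.50 (adjusted p = 0.0139, limma) was lost without replicate 1, 2 or 4 of each group (adjusted p = 0.0508 to 0.098). COL14A1 had 1 read in MDA-MB-231 in all, and its difference was not called (adjusted p = 0.0963, limma).

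Conversely, COL8A1 and COL13A1 fell in MDA-MB-231 but read only 4.49 to 15.5 and 31.0 to 64.1 in MDA-MB-468. Their differences of 0.86 ± 0.32 and 0.59 ± 0.21 passed narrowly (adjusted p = 0.0479 and 0.0375, limma) and were lost without replicate 1 or 3 of each group (adjusted p = 0.152 to 0.179), COL8A1 also with a pseudocount of 0.5, no filter or quantile rescaling (adjusted p = 0.0502 to 0.06). COL18A1, abundant in both lines, fell more in MDA-MB-231, by 0.29 ± 0.06 (adjusted p = 0.00172, limma). LOXL2 and PLOD2 likewise fell in MDA-MB-231, PLOD2 with the limits given above, and were not called in MDA-MB-468. Their responses differed between the lines by 0.49 ± 0.11 and 0.18 ± 0.03. COL1A1 differed by 0.45 ± 0.13 (adjusted p = 0.0123, limma), lost without replicate 1, 2 or 3 of each group (adjusted p = 0.0622 to 0.0777). P3H2, which fell in both lines, was not shown to differ between them (-0.32 ± 0.13, adjusted p = 0.0753, limma).

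Genes that work with collagen but are not members were read from lists of 38 genes in the table. In MDA-MB-231 6 of 30 tested rose and 3 fell (15.1% of all genes tested were called, 5.71% higher). In MDA-MB-468 7 of 25 rose and 7 fell, 56% of the list against 47.6% of all genes. All 9 genes for export of large cargo from the endoplasmic reticulum had positive log2 fold changes in MDA-MB-231 (0.05 to 0.21), of which 4 passed the test. This list was singled out after its values were seen. Every other list had both signs, and over all 30 genes 20 were positive and 10 negative. In MDA-MB-468 3 of 8 export genes tested rose and 2 fell (24.9% of all genes tested were higher and 22.7% lower). FURIN, a convertase that activates procollagen proteinases, rose by 0.52 ± 0.05 in MDA-MB-468. The fibril-binding PRELP and TNXB fell there by 0.94 ± 0.33 and 0.72 ± 0.16. MRC2, the endocytic receptor for collagen, fell by 0.36 in MDA-MB-231 and rose by 0.37 in MDA-MB-468.

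Transcripts of the members that fell were long. Their median length was 5408 nt in MDA-MB-231 and 5418 nt in MDA-MB-468, against 4238 and 4127 nt for all genes that fell. Members not called were long too, with medians of 4188 and 4173 nt against 3012 and 2738.5 nt for all genes not called. The 1 member that rose in MDA-MB-231 had 5076 nt, and the 7 in MDA-MB-468 had a median of 2976 nt. After each sample was corrected for transcript length, 14 members fell and 1 rose in MDA-MB-231, and 8 fell and 8 rose in MDA-MB-468. With that correction 15.3% of all genes tested were called in MDA-MB-231, 1324 lower and 858 higher. In MDA-MB-468 48.6% were called, 3236 lower and 4091 higher. LOXL3 shares 20.7% of its exonic bases with HTRA2 on the opposite strand and COL4A3 6.82% with MFF-DT, so their values are uncertain in the same way as those of COL18A1 and LOXL1.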

How the data were processed

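RNA-seq libraries of the 16 samples were deposited as 1 table of normalised signal per Ensembl gene, which the authors made with Trimmomatic and TopHat; their methods name hg19 with Ensembl annotation and the submitters' processing notes name hg38 and edgeR. The counting program and its use of strand are not given in the sources used here. Each deposited value was a whole number of reads divided by 1 factor per library: 100% of values came out whole, with a largest deviation of 5.83e-05 reads (0.001 allowed). Of 18332 IDs 16633 were given a symbol and 17418 a canonical transcript length from GENCODE lifted to GRCh37; all 50 members had both.

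Genes that reached 0.5 CPM in any 2 samples of a fit were tested with limma 3.58.1 (R 4.3.3; trend, two-sided) on log2(value + 1), with Benjamini-Hochberg adjustment over all genes tested and a threshold of 0.05. Each line was fitted on its own 8 libraries, and the differences between lines and between responses on all 16. The fits within each line and between the responses were tried on simulated data; the fit between the lines was not. Alternatives were the count tests of edgeR 4.0.16 and DESeq2 1.42.0, given the recovered reads, and other pseudocounts, filters, scalings, length and GC corrections, replicate blocks and left-out replicates.

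Members were given values per sample when past the threshold in a line by 0.5 or more on the log2 scale with at least 1 CPM in the higher group, when past it between the responses with a difference of at least 1, or when among the 3 highest per kilobase in a group. Values in full for COL1A1, COL4A1, COL4A5, COL18A1, LOX, LOXL2, COL5A1 and COL6A3, as means or per sample, were chosen after they were seen. Members and lists were chosen with earlier results of these data known.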

Additional observations from a re-analysis of the deposited data

Results flagged for a closer look

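Among 70 groups of 4 libraries, taken over the members given by sample, 2 had 1 library far from the other 3 by Dixon's test, where chance gives about 1 in 20. COL14A1 was at 1.03 in 1 low-glucose library of MDA-MB-231, which is 1 read, and at 0 in the others. PLOD2 was at 1743 in the second low-glucose library of MDA-MB-468, with the others at 1701 to 1708.

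The glucose response differed between the lines by at least 1 on the log2 scale for 7 members in the limma interaction test. The response in MDA-MB-468 minus that in MDA-MB-231 was -3.28 for COL5A2, -1.75 for COL15A1, -1.48 for LOXL4 and -1.28 for COL4A6. It was 2.10 for P3H4, 1.68 for LOXL1 and 1.36 for COL9A3. COL5A2, COL4A6, COL9A3 and COL15A1 were scarce in MDA-MB-231, with 26 to 59 reads over its low-glucose libraries, and LOXL1 and LOXL4 were scarce in MDA-MB-468, with 6 and 37. LOXL1 also shares exonic bases with LOXL1-AS1, as given above. P3H4 had 97 reads over the low-glucose libraries of MDA-MB-468 and 957 over those of MDA-MB-231.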

How the results depend on the processing

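No call on a member changed direction under any alternative run. Of the 14 calls in MDA-MB-231, 5 passed in every alternative that tested them, a threshold of 0.01 included (LOX, LOXL2, COL4A1, COL4A2 and COL18A1), as did 13 of 18 in MDA-MB-468, 13 of 20 between the responses and 46 of 47 between the lines. With the spread shared by all 16 samples, 8 members instead of 14 were called in MDA-MB-231, of which 7 were shared. Over all genes tested 13.5% were then called instead of 15.1%. The cause was not tested. Leaving out 1 replicate gave 11 to 15 calls in MDA-MB-231, 15 to 19 in MDA-MB-468, 16 to 18 between the responses and 46 to 47 between the lines. On recovered reads edgeR called 14, 19, 20 and 47 members (2244, 7484, 5258 and 14650 genes) and DESeq2 14, 17, 20 and 47 (2085, 6632, 5060 and 14427 genes). Quantile rescaling changed the balance over all genes of MDA-MB-231 to 1027 higher and 1114 lower, with 2 members higher and 12 lower. Deviations of same-numbered samples had correlations of -0.04 to -0.01 in MDA-MB-231 and 0.02 to 0.03 in MDA-MB-468. The correlation was best with the sample's own number for 0 of 4 numbers in MDA-MB-231 and 3 of 4 in MDA-MB-468. Whether the numbers pair the samples was not tested. With a replicate block 12, 18 and 21 members were called in MDA-MB-231, in MDA-MB-468 and between the responses. Over all genes tested the block gave 10.9%, 46.9% and 27.9%. Levels per kilobase depend on the transcript taken as the gene's length.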
